A study of Gallus gallus with 14 samples.

Results

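The genes described here are the sensors, signalling proteins and interferon-stimulated genes of the innate antiviral response in the chick retina. They were chosen by name: of 42 symbols, 41 stood among the 18631 genes of the deposited table, and IRF10, an interferon regulatory factor of birds, was not found under that symbol and is not analysed here. Of the 41, 9 encode sensors of foreign nucleic acid or bacterial products and their adaptors, 7 are receptors and kinases, 7 are transcription factors, 4 are brakes on the pathway, and 14 are genes that interferon induces. Total RNA was sequenced from 14 retinas of wild type White Leghorn chickens, a layer breed. Lenses of -10 dioptres, which place the image behind the retina and induce myopia, were fitted at the age of 3 days and worn for 1 day over 7 of the eyes, and 7 retinas were controls. The age in the labels is 3 days for the controls as well. How the control eyes were handled, the sex of the birds and whether the retinas came from separate birds are not given in the labels, so p-values reflect only how far these samples spread, part of which may be technical. The lens libraries fall into a set titled L1R, L2L, L3R and L4L and a set titled L12R, L13L and L14R. The controls are titled C10R, C17L, C18R, C19L, C21R, C22L and C23R. What the last letter of a title stands for is not defined in the labels.

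Interferons are secreted when a cell senses viral RNA or DNA. They bind receptor pairs whose attached JAK kinases phosphorylate STAT proteins, and the STATs, with interferon regulatory factors, switch on the stimulated genes. Many of those genes encode proteins that block viral replication, and others, such as USP18 and the SOCS proteins, turn the signal down again. In an uninfected retina the stimulated genes are normally kept low, and microglia, the resident immune cells, carry much of the sensing machinery.

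Levels are CPM, counts per 1000000 reads, not divided by gene length, so they are compared between libraries and not between genes. Each library rested on 27.7 to 49.3 M reads, a total inferred from the value of 1 read, which was 0.0203 to 0.0361 CPM. Of these reads, 8.65 to 15.3 M per library fell on the genes in the table. The tissue matched its label: of 24 markers of retinal neurons in the table, 23 had a median of at least 1 CPM. The 18 markers of microglia and other leukocytes in the table summed to 9.75 to 15.6 CPM in the controls, 12.7 to 16.6 CPM in L1R to L4L, and 13.4, 11.96 and 16.6 CPM in L12R, L13L and L14R. Among these markers CX3CR1, TMEM119, MARCO, CD3D and CD4 had a median of 0. W-linked genes stood above 100 CPM in 3 of 7 controls, 3 of 4 libraries of the set L1R to L4L and 1 of 3 of the set L12R to L14R, so birds with a W chromosome, which female birds carry, were unevenly spread over the groups. In bulk tissue, fewer cells of a type and less RNA per cell cannot be told apart.

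The main pattern was low, noisy expression of the induced genes with 1 library, L14R, at the top of many of them, and no change shared by the lens libraries that passed the test. L14R held the highest level of 14 libraries for 8 of the 41 genes (19.5%), against 4.09% of all genes in the table with any reads. These 8 were the antiviral zinc finger protein ZC3HAV1, the ubiquitin ligase TRIM25, the brake USP18, and the stimulated genes IFIT5, MX1, OASL, IFI6 and SAMD9L. Within the 14 stimulated genes L14R was highest for 5 (35.7%). It led 6 of the 20 genes with a mean under 1 CPM (30%), against 4.69% of all such genes, and 2 of the 21 more abundant ones (9.52%), against 3.67%. IFIT5, among these 2, averaged 0.832 CPM in the controls and reached a mean of 1 CPM only with the lens libraries. The other libraries of its set did not share this: L12R was highest for 0 of 41, where 4.26% of all genes peaked, and L13L for 3 (DHX58, JAK2 and PARP9), or 7.32% against 5.08%. The control C23R came next with 7 genes (17.1% against 8.64%): the RNA-activated kinase EIF2AK2, the RNA-editing enzyme ADAR, IFNGR2, JAK1, TYK2, IRF2 and IFI27L2. L3R led 6 (14.6% against 11.3%), namely TLR3, IFNAR2, IFNGR1, IRF1, IRF8 and B2M. Among 30 further genes listed as stimulated, outside the 41, L14R was highest for 1 (3.33%). The lists were chosen with earlier results of these data known, so these shares are a description and not a test.

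**Figure D1:**
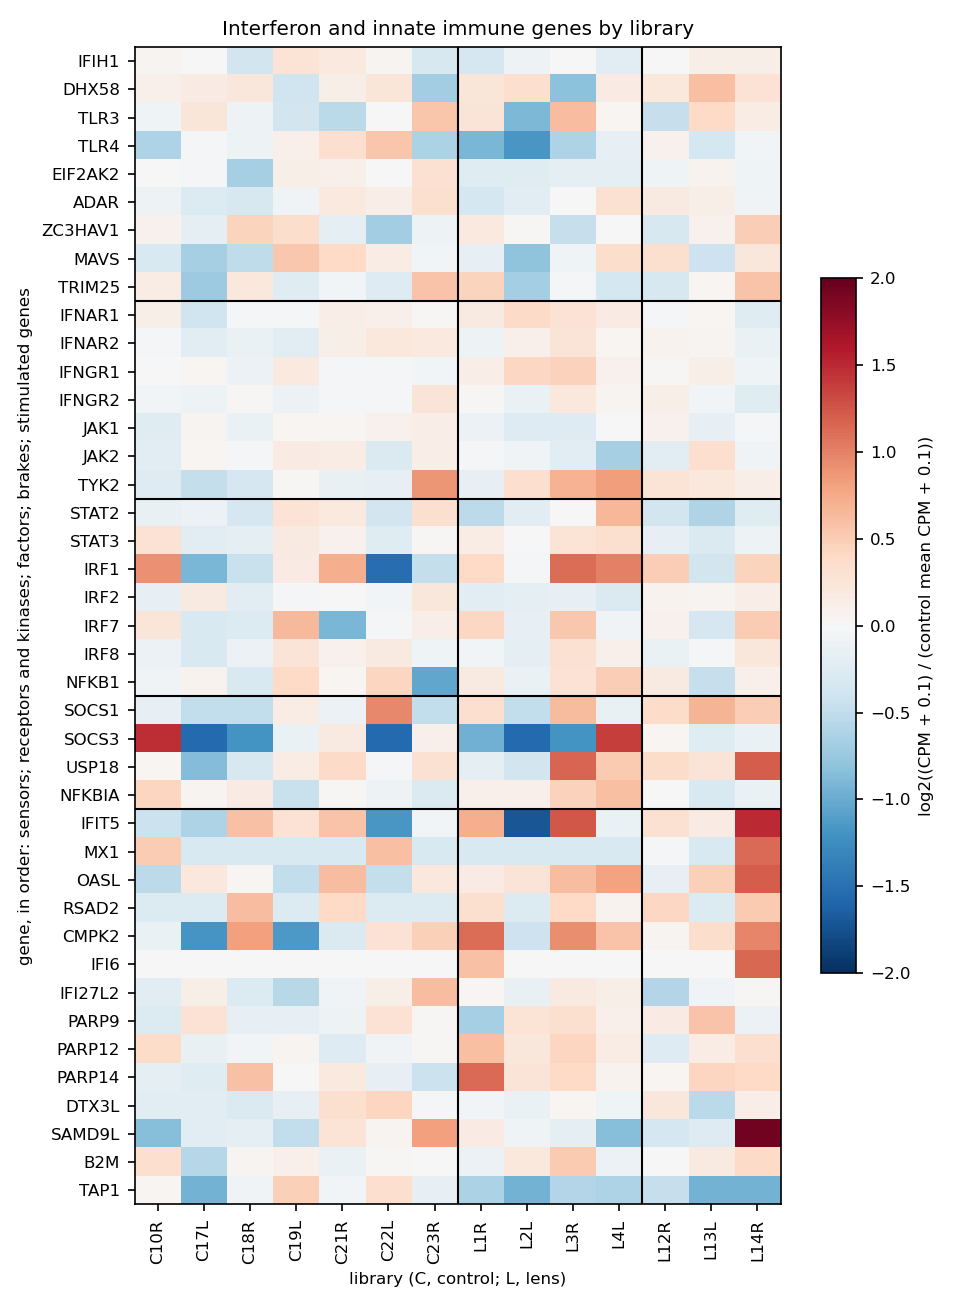
Levels of the 41 genes (rows, by role) in the 14 libraries (columns, by group; horizontal lines part the roles and vertical lines the groups). Colour is the log2 ratio of a library's CPM to the control mean, each plus 0.1, cut at 2 in either direction; the cells of L14R are red for SAMD9L, IFIT5, USP18 and OASL, above those of L12R and L13L.

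**Figure D2:**
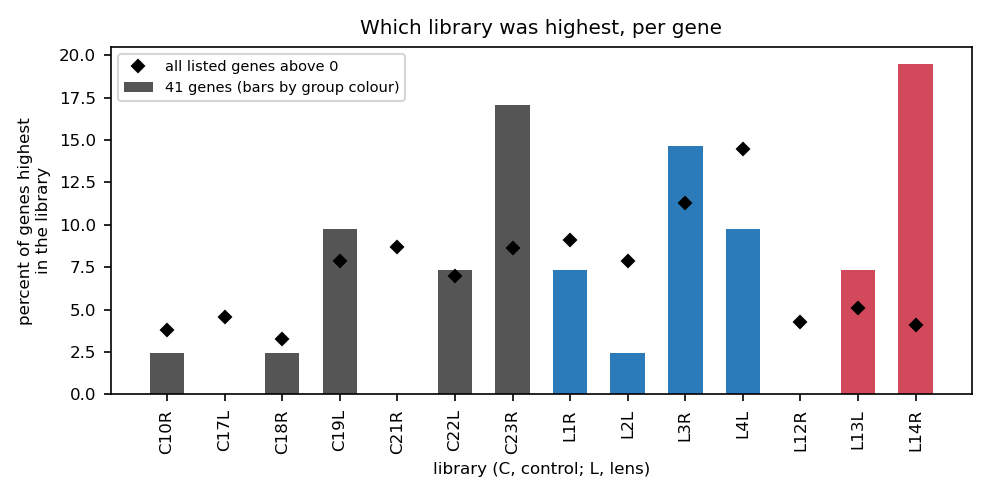
Percent of genes (vertical axis) that were highest in each library (horizontal axis). Bars are the 41 genes, grey for control, blue for L1R to L4L and red for L12R to L14R, and diamonds are all genes in the table with any reads; the bar of L14R is at 19.5% and its diamond at 4.09%.

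The stimulated genes are taken first, because L14R stood out there. IFIT5, the only IFIT protein of the chicken and one that binds foreign RNA ends, lies on chromosome 6, chr6:20187816-20191588, in GRCg6a. Its level in the controls ran from 0.315 to 1.29 CPM with a median of 0.794. In the set L1R to L4L it was 1.45, 0.184, 2.11 and 0.747 CPM, and in L12R, L13L and L14R it was 1.06, 0.940 and 2.53 CPM. L14R was the highest and L3R the next, while L2L was the lowest of all 14, so every pair of groups overlapped. The 104 reads of L14R have an exact 95% Poisson interval, covering counting error only, of 85.0 to 126 reads. The set L12R to L14R averaged 1.51 ± 0.884 CPM (SD, n = 3) against 0.832 ± 0.384 (SD, n = 7) in the controls, a log2 difference of 0.43 (SE 0.21, limma adjusted p = 0.942). Without L14R the difference was 0.15.

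SAMD9L, which restricts translation during viral infection, lies at chr2:22910015-22918539. It had 24 reads in L14R (0.583 CPM, 95% Poisson interval 15.4 to 35.7 reads). The controls held 0 to 6 reads, the set L1R to L4L held 4, 3, 2 and 0, and L12R and L13L held 2 each. No other library reached a level above 0.216 CPM, that of the control C23R. The log2 difference of L12R to L14R from control was 0.16 (SE 0.11, limma adjusted p = 0.993 in the fit with no filter), and without L14R it was -0.04.

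MX1, a dynamin-like GTPase that is a classic marker of interferon exposure (chr1:110239751-110260517), had 7 reads in L14R, 1 in L12R and 0 in L13L. The controls C10R and C22L had 3 each, and the other controls and all of L1R to L4L had 0. A count of 0 allows up to 3 reads, and only the count of L14R lay above that. A count of 7 has a 95% Poisson interval of 2.81 to 14.4 reads, and a count of 3 has 0.62 to 8.77. These intervals overlap, and the lower end for L14R lies under the limit for a count of 0. IFI6, a small interferon-induced membrane protein (chr2:89717672-89721063), had 5 reads in L14R, 2 in L1R and 0 in the other 12 libraries.

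OASL, an oligoadenylate synthetase of the family that reports viral RNA (chr12:3635443-3637473), had 13 reads in L14R (0.316 CPM), 3 in L12R and 6 in L13L. The controls held 1 to 6 reads and L1R to L4L held 4, 5, 6 and 8. In CPM the controls had a median of 0.0844, and 6 of 7 lens libraries lay above it. RSAD2, which encodes the antiviral enzyme viperin, stayed at 0 to 3 reads in every library, with 3 each in L12R, L14R and C18R. Its neighbour CMPK2, a mitochondrial nucleotide kinase, was at 0.0804 to 0.619 CPM in the controls (median 0.273). It was at 0.787, 0.207, 0.674 and 0.507 CPM in L1R to L4L, and at 0.325, 0.421 and 0.704 CPM in L12R to L14R. L1R was highest for CMPK2 and L14R next, and 6 of 7 lens libraries lay above the control median.

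Summed over the 9 stimulated genes whose mean was under 1 CPM, L14R held 3.20 CPM, or 132 reads. The controls held 1.04 to 2.11 CPM (median 1.61), the set L1R to L4L 2.07, 1.46, 2.38 and 1.76 CPM, and L12R and L13L 1.40 and 1.70 CPM. The same library had the highest sum of microglia and leukocyte markers, at 16.6 CPM, with L3R also at 16.6; their part in the result was not tested. Without L14R, the highest sum of the 9 genes was that of L3R. Over all 14 stimulated genes L14R was not the highest: it summed to 17.2 CPM, L1R to 17.3 and L3R to 16.8, and the controls to 10.6 to 13.2 CPM. These 9 genes were under the filter of a mean of 1 CPM and had no place in the main test. When all genes with any reads were fitted, no member under the filter passed in any comparison. By limma, the smallest adjusted p was 0.121, for TAP1 in L1R to L4L against control, and 2, 3, 2 and 1 of the 20 had an unadjusted p under 0.05 in the 4 comparisons.

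**Figure D3:**
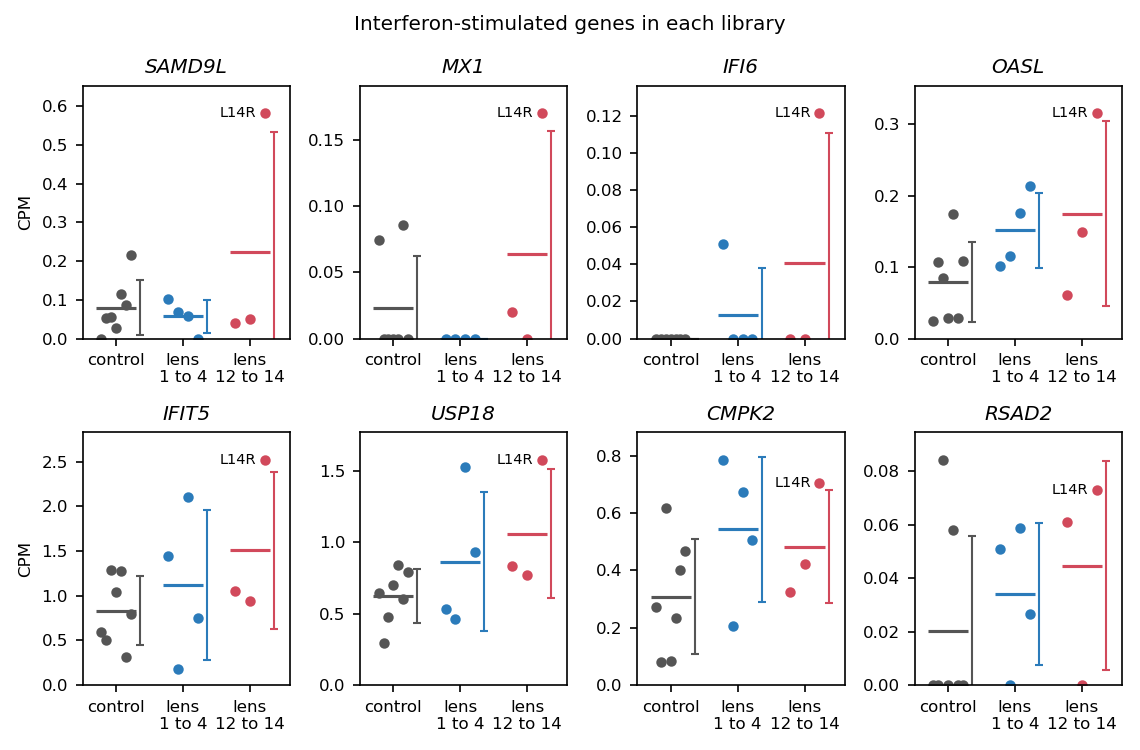
Level in CPM (vertical axis, a separate linear scale from 0 in each panel) of 7 stimulated genes and the brake USP18 in each library, by lens set (horizontal axis). Points are libraries, the line is the group mean and the bar beside it 1 SD, cut off at 0; the point of L14R is the highest for SAMD9L, MX1, IFI6, OASL, IFIT5 and USP18.

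TAP1, which pumps peptides into the endoplasmic reticulum for class I display, had fewer reads in lens than in control libraries. It had 4, 0, 3, 6, 3, 5 and 2 reads in the controls in title order, 1, 0, 1 and 1 in L1R to L4L, and 2, 0 and 0 in L12R, L13L and L14R. The 7 controls held 23 reads in all and the 7 lens libraries 5, and the groups overlapped through the control at 0. In the fit with no filter the log2 difference of all lens libraries from control was -0.10 (limma unadjusted p = 0.00232, adjusted p = 0.254), so TAP1 did not pass. With a pseudocount of 0.1 the difference was -0.68. B2M, the light chain of class I molecules, was at 0.402 to 0.843 CPM in the controls, 0.584 to 0.967 in L1R to L4L and 0.650, 0.742 and 0.874 in L12R to L14R, and these ranges overlapped.

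The ADP-ribosyltransferases and their partner DTX3L were expressed at levels that could be tested. PARP14, an ADP-ribosyltransferase linked to STAT signalling, was at 1.55 to 3.23 CPM in the controls (median 1.89). It was at 4.80, 2.55, 2.81 and 2.24 CPM in L1R to L4L, and at 2.17, 2.90 and 2.84 CPM in L12R to L14R. All 7 lens libraries lay above the control median, and L1R stood apart at the top. Over all lens libraries PARP14 averaged 2.90 ± 0.885 CPM (SD, n = 7) against 2.12 ± 0.567 (SD, n = 7), a log2 difference of 0.31 (SE 0.13, limma adjusted p = 0.296).

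PARP9, which pairs with DTX3L to modify histones and viral proteins, was at 1.54 to 2.32 CPM in the controls (median 1.74). It was at 1.14, 2.30, 2.37 and 2.03 CPM in L1R to L4L and 2.11, 2.82 and 1.72 in L12R to L14R, with L13L highest and L1R lowest. The log2 difference of L12R to L14R from control was 0.16 (SE 0.13, limma adjusted p = 0.981), 0.03 without L13L and 0.27 without L14R. The listed spans of PARP9 and DTX3L overlap, and the sources used here do not say whether strand was used in counting. PARP12, a zinc finger ADP-ribosyltransferase, was at 3.52 to 5.48 CPM in the controls and 6.50, 4.96, 5.71 and 4.70 in L1R to L4L, a log2 difference of 0.31 (SE 0.11, limma adjusted p = 0.0699). L12R, L13L and L14R were at 3.51, 4.68 and 5.39 CPM, so L12R lay just below the lowest control. DTX3L was at 0.916 to 1.89 CPM over all libraries, and IFI27L2, a relative of IFI6, at 0.207 to 0.600 CPM, with overlapping groups for both.

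The brakes differed among themselves. USP18, a protease that removes the ubiquitin-like ISG15 and shuts the type I receptor (chr1:62069631-62083651), was at 0.295 to 0.843 CPM in the controls, with a median of 0.645. It was at 0.533, 0.460, 1.52 and 0.934 CPM in L1R to L4L, and at 0.832, 0.767 and 1.58 CPM in L12R to L14R. L14R, L3R and L4L stood above every control, whereas L12R and L13L lay inside the control range. The 65 reads of L14R have a 95% Poisson interval of 50.2 to 82.9 reads. The log2 difference of L12R to L14R from control was 0.33 (SE 0.13, limma adjusted p = 0.993 in the fit with no filter). It was 0.16 without L14R, and 0.67 with a pseudocount of 0.1 in place of 1.

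NFKBIA, the inhibitor that holds NF-kappaB in the cytoplasm, was at 3.11 to 5.78 CPM in the controls (median 4.33). It was at 4.59, 4.57, 5.92 and 6.56 CPM in L1R to L4L and at 4.28, 3.44 and 3.91 CPM in L12R to L14R. The lens sets did not overlap with each other for NFKBIA, as for 23.1% of all genes tested. Both sets overlapped with the controls for NFKBIA. The set L12R to L14R averaged 3.88 ± 0.423 CPM (SD, n = 3) against 5.41 ± 0.992 (SD, n = 4), a log2 difference of -0.39 (SE 0.13, limma adjusted p = 0.119). With W-linked expression added as a covariate the adjusted p became 0.0242 for this comparison and 0.0352 for L1R to L4L against control.

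SOCS1 and SOCS3, which block JAK kinases, were close to the counting limit in most libraries. SOCS1 had 0 to 6 reads in the controls, 3, 0, 4 and 1 in L1R to L4L, and 4, 5 and 4 in L12R to L14R. SOCS3 had 29 reads in the control C10R and 25 in L4L. In the other 12 libraries it had 0 to 10 reads, the 10 being those of L12R, so SOCS3 was high in a single library of each condition.

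Among the sensors, none of the 5 tested was called in any comparison. IFIH1, the long-RNA sensor MDA5, was at 2.76 to 4.35 CPM in the controls (median 3.72), at 2.82, 3.33, 3.57 and 3.04 CPM in L1R to L4L, and at 3.57, 3.91 and 3.89 CPM in L12R to L14R. All 4 libraries of the first set lay below the control median, and 2 of 3 of the other set above it, but each set lay inside the control range. The log2 difference of L12R to L14R from control was 0.07 (SE 0.12, limma adjusted p = 0.993). Chickens lack RIG-I, the short-RNA sensor of mammals, so IFIH1 is their main cytoplasmic sensor of this family.

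DHX58, the helicase LGP2 that modulates IFIH1, had 2 to 8 reads in the controls, 9, 11, 2 and 8 in L1R to L4L, and 11, 13 and 10 in L12R to L14R. In CPM its control range was 0.0721 to 0.229 and the set L12R to L14R was at 0.223, 0.322 and 0.243. L13L was the highest of the 14 libraries, and L12R lay within the control range. The log2 difference was 0.10 (SE 0.049, limma adjusted p = 0.993 in the fit with no filter), and 0.40 with a pseudocount of 0.1.

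ADAR, which edits double-stranded RNA to mark it as self, was at 5.82 to 9.13 CPM in the controls (median 6.93) and at 5.69, 6.32, 7.35 and 9.04 CPM in L1R to L4L. L12R, L13L and L14R were at 8.32, 7.97 and 6.97 CPM, inside the control range (log2 difference 0.09, SE 0.12, limma adjusted p = 0.987). EIF2AK2, which halts translation on double-stranded RNA, was at 1.38 to 2.78 CPM in the controls, 1.88, 1.88, 1.93 and 1.95 in L1R to L4L and 2.09, 2.35 and 2.11 in L12R to L14R. The lens sets did not overlap for EIF2AK2, as for 23.1% of all genes tested. Both sets lay inside the control range for EIF2AK2 (log2 difference between the sets 0.13, SE 0.096, limma adjusted p = 0.430).

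ZC3HAV1, which destroys CpG-rich viral RNA, reached 2.06 CPM in L14R, next to 1.997 CPM in the control C18R, and TRIM25 reached 1.41 CPM in both L14R and the control C23R. For these genes the lead of L14R over the next library was small. MAVS, the mitochondrial adaptor of IFIH1, was at 0.598 to 1.68 CPM over all libraries. TLR3, a receptor for double-stranded RNA in endosomes, was at 0.184 to 0.705 CPM. TLR4, the lipopolysaccharide receptor, was at 0.144 to 0.458 CPM in the controls, 0.102, 0.0690, 0.146 and 0.240 CPM in L1R to L4L, and 0.305, 0.198 and 0.267 CPM in L12R to L14R. All 4 libraries of the first set lay below the control median of 0.268 CPM.

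The receptors were expressed in every library. Levels of IFNAR1 did not overlap between the lens sets, as was so for 23.1% of all genes tested. IFNAR1, a chain of the type I interferon receptor, was at 4.74 to 6.86 CPM in the controls (median 6.39). It was at 7.11, 8.16, 7.62 and 7.02 CPM in L1R to L4L and at 6.15, 6.43 and 5.25 CPM in L12R to L14R. The first set lay above every control and above every library of the other set, and L12R to L14R lay inside the control range. IFNAR1 was the only one of the 41 genes whose levels in L1R to L4L did not overlap with control, where 9.78% of the genes tested did not overlap and 7.05% lay higher. Its log2 difference in L1R to L4L against control was 0.23 (SE 0.092, limma adjusted p = 0.108), and between the sets -0.29 (SE 0.0995, adjusted p = 0.116).

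IFNGR2, a chain of the interferon gamma receptor, was at 7.46 to 9.70 CPM in the controls (median 7.98). It was at 8.27, 7.40, 9.40 and 8.43 CPM in L1R to L4L and 8.75, 7.77 and 6.87 CPM in L12R to L14R. L14R was the lowest of the 14 libraries, and L12R was the third highest. IFNGR2 differed from control by -0.05 in L12R to L14R (log2, SE 0.092, limma adjusted p = 0.993). Its partner IFNGR1 was at 7.96 to 9.87 CPM in the controls and 9.52, 11.5, 11.9 and 9.18 in L1R to L4L. The log2 difference was 0.25 (SE 0.084, limma adjusted p = 0.0579), just short of the threshold, and L12R, L13L and L14R were at 8.73, 9.33 and 8.16 CPM, inside the control range. IFNAR2 was at 6.94 to 9.67 CPM over all libraries, with overlapping groups. IFNAR1, IFNAR2 and IFNGR2 lie close together on chromosome 1, and L14R ranked 13th, 12th and last of 14 for them. L14R also ranked 13th for IFNGR1, which lies on chromosome 3. For the kinases JAK1, JAK2 and TYK2, L14R ranked 8th, 8th and 7th. No background was made for how often L14R ranked low over all genes, so these ranks are a description.

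The kinases JAK1, JAK2 and TYK2 sit on these receptors. JAK1 was at 49.9 to 64.4 CPM in the controls, 49.1 to 59.3 in L1R to L4L and 52.8 to 62.7 in L12R to L14R. JAK2 lies on the Z chromosome, of which male birds carry a pair, at chrZ:27532802-27618275. It was at 45.2, 54.1, 51.0, 58.6, 57.9, 42.9 and 57.5 CPM in the controls in title order, 51.4, 49.9, 45.4 and 32.9 in L1R to L4L, and 44.9, 66.2 and 50.1 in L12R, L13L and L14R. Among the controls, JAK2 was at 58.0 ± 0.552 CPM (SD, n = 3) with W-linked reads and 48.3 ± 5.18 (SD, n = 4) without, and among the lens libraries at 53.2 ± 9.01 (SD, n = 4) and 42.7 ± 8.83 (SD, n = 3). In both conditions the mean was higher in the libraries with W-linked reads, and a tie to the number of Z copies was not tested. JAK2 in L1R to L4L differed from control by -0.23 (log2, SE 0.12, limma adjusted p = 0.202), and it passed the threshold when the W-linked level was a covariate. TYK2 was at 0.348 to 1.05 CPM over all libraries and was highest in the control C23R.

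Among the transcription factors, STAT3 was the only one of the 41 genes that passed the test in any comparison. STAT3, which carries signals of interleukin-6 family cytokines as well as of interferons, was at 30.9, 21.6, 22.2, 28.6, 26.9, 21.4 and 25.7 CPM in the controls in title order. It was at 28.0, 25.5, 30.6 and 31.5 CPM in L1R to L4L and at 22.6, 20.7 and 23.6 CPM in L12R, L13L and L14R. The lens sets did not overlap, and the controls spanned both. STAT3 was lower in L12R to L14R, at 22.3 ± 1.46 CPM (SD, n = 3), than in L1R to L4L, at 28.9 ± 2.70 (SD, n = 4). The log2 difference was -0.36 (SE 0.088, limma adjusted p = 0.0495). The call was at the edge of the threshold: the adjusted p was 0.0710 with trimmed mean scaling, 0.0690 with median of ratios scaling and 0.0754 in a joint fit of the 3 groups, and leaving out any lens library other than L2L also ended it. Marker sums of other cell types also parted the lens sets: retinal neuron markers summed to 1779 to 1980 CPM in L12R to L14R and 2023 to 2329 in L1R to L4L, and pigment epithelium markers to 32.2 to 32.4 and 38.1 to 54.1 CPM. L4L, the highest library for STAT3 and NFKBIA, held the 54.1 CPM. OTX2 was the largest part of the pigment epithelium sums, at 22.98 to 23.46 CPM in L12R to L14R and 28.8 to 35.8 in L1R to L4L. LRAT and BEST1 also parted the sets, BEST1 at no more than 0.0243 CPM in L12R to L14R. Of all genes tested, 23.1% did not overlap between the sets, 15.5% of them lower in L12R to L14R as a share of all. Parting of the sets is therefore not particular to these markers. The other markers of this list overlapped, among them RPE65, at 1.34 to 2.96 CPM in L12R to L14R and 1.23 to 7.04 in L1R to L4L. The sums therefore do not show that the sets differed in pigment epithelium content. The part of these markers in the values of STAT3, NFKBIA and IFNAR1, which also parted the sets, was not tested. Against control, neither set passed for STAT3 (log2 0.19, SE 0.10, adjusted p = 0.220 for L1R to L4L, and -0.16, SE 0.11, adjusted p = 0.981 for L12R to L14R).

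IRF2, which occupies interferon response elements and mostly restrains them, was at 8.44 to 11.5 CPM in the controls (median 9.65). It was at 8.38, 8.60, 8.67 and 7.98 CPM in L1R to L4L and at 10.2, 10.1 and 10.7 CPM in L12R to L14R. The lens sets did not overlap for IRF2, as for 23.1% of all genes tested. Each set overlapped with the controls for IRF2. The log2 difference between the sets was 0.27 (SE 0.079, limma adjusted p = 0.0762).

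STAT2, a transcription factor of the type I response, was at 0.772 to 1.30 CPM in the controls (median 0.938). It was at 0.685, 0.873, 1.03 and 1.68 CPM in L1R to L4L and at 0.772, 0.643 and 0.850 CPM in L12R to L14R. All 3 libraries of the latter set lay below the control median, L13L was the lowest of 14, and L4L stood apart at the top. The log2 difference of L12R to L14R from control was -0.20 (SE 0.10, limma adjusted p = 0.993 in the fit with no filter), and -0.38 with a pseudocount of 0.1. IRF1, an activator of interferon response elements, was at 0 to 0.447 CPM in the controls (median 0.112), at 0.184 to 0.527 CPM in L1R to L4L and at 0.305, 0.124 and 0.291 CPM in L12R to L14R. All 7 lens libraries lay above the control median, and the groups overlapped. IRF7, which amplifies interferon production and in the chicken takes on work that IRF3 does in mammals, had 0 to 7 reads in every library. IRF8, a factor of macrophages and microglia, was at 1.69 to 2.61 CPM over all libraries, and NFKB1, a subunit of NF-kappaB, at 0.433 to 1.44 CPM, with overlapping groups for both.

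**Figure D4:**
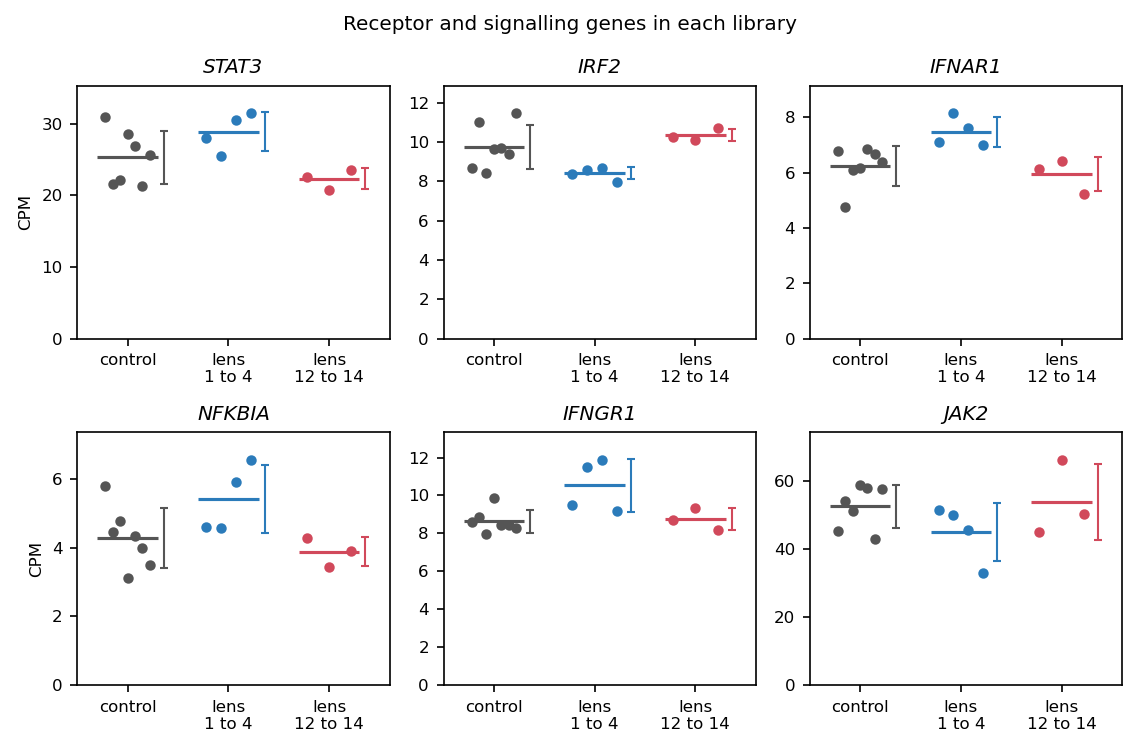
Level in CPM (vertical axis, a separate linear scale from 0 in each panel) of STAT3, IRF2, IFNAR1, NFKBIA, IFNGR1 and JAK2 in each library, by lens set (horizontal axis). Points are libraries, the line is the group mean and the bar beside it 1 SD. For STAT3, IRF2, IFNAR1 and NFKBIA the lens sets do not overlap with each other, as for 23.1% of all genes tested.

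Read as a list, the genes gave 1 call in the 4 comparisons. Genes that averaged at least 1 CPM across libraries entered limma, and a gene was called when its p, adjusted over all 11005 such genes, was under 0.05. Of the 41 genes 21 passed this filter, and 20 did not: 9 of 14 stimulated genes, 4 of 9 sensors, 3 of 4 brakes, 3 of 7 transcription factors and 1 of 7 receptors and kinases. In L12R to L14R against control 0 of 21 were called, where 0% of all genes were. None of the 21 had an unadjusted p under 0.05, against 571 genes in all (5.19%). Their median log2 difference was 0.02, and that of all genes tested -0.0049, with 13 of 21 above 0. Of all 11005 genes, 5286 were above 0. The 5 stimulated genes tested had a median of 0.16, with 4 of 5 above 0. IFIT5, among these 4, averaged 0.832 CPM in the controls and 1.29 CPM over all lens libraries. It thus passed the filter only through libraries in which it was high, and this count is not support for a rise. Of the 21, 0 were free of overlap between this set and the controls, where 1.65% of all genes tested were, so the 2 shares are close. None of the 20 genes under the filter was free of overlap either.

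In L1R to L4L against control 0 of 21 were called, where 13.4% of all genes were, 1034 higher and 446 lower. At an unadjusted p under 0.05 there were 6 of 21, where 30.2% of all genes fell. The median log2 difference was 0.04 for the 21 genes and 0.04 for all genes tested. With all lens libraries together 0 of 21 were called and 0% of all genes. At an unadjusted p under 0.05 there was 1 of 21, PARP14, where 14.7% of all genes fell. The median was 0.03 for the 21 genes and 0.02 for all genes tested.

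Between the sets 1 of 21 was called, STAT3, which was lower in L12R to L14R, where 5.01% of all genes were called and 3.53% were called lower. The sets did not overlap for 5 of the 21 genes (EIF2AK2 and IRF2 higher in L12R to L14R, and IFNAR1, STAT3 and NFKBIA lower), and 23.1% of all genes tested did not overlap, 7.57% higher and 15.5% lower. The share of the 21 genes is thus close to that of all genes tested. The median was 0.01 for the 21 genes and -0.04 for all genes tested. The comparisons with control share their 7 control libraries, and each set stands in 3 of the 4 comparisons, so they are not independent of each other.

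**Figure D5:**
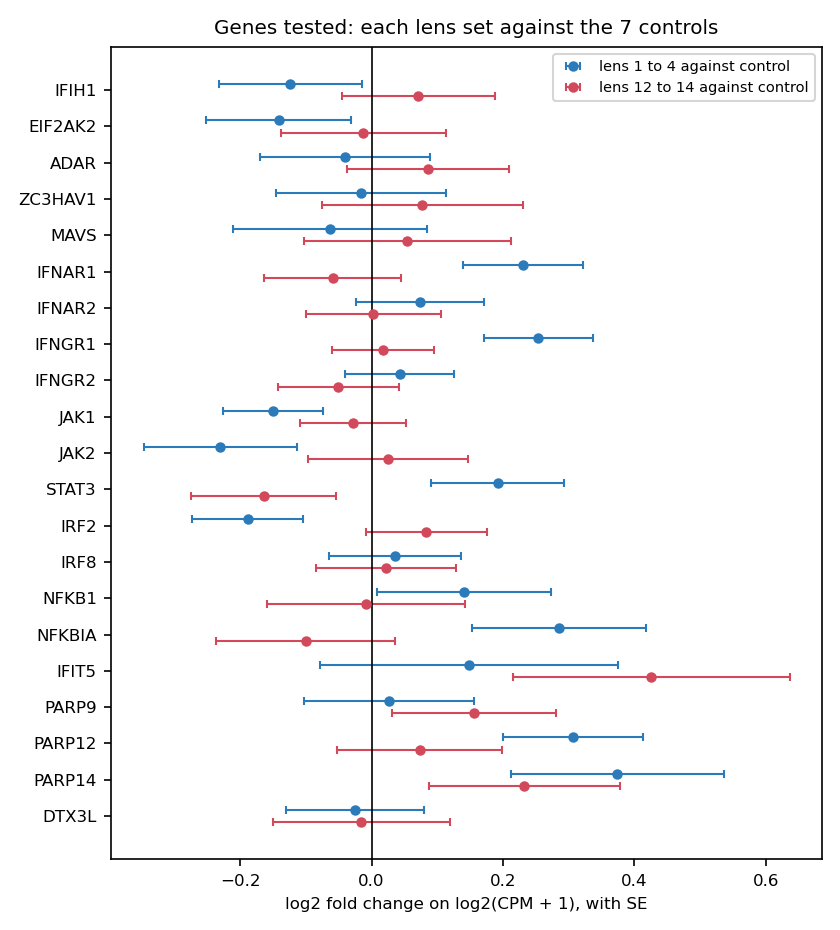
Log2 difference from the 7 controls on the log2(CPM + 1) scale (horizontal axis) of the 21 genes tested (rows), for L1R to L4L in blue and L12R to L14R in red, with bars of 1 SE. None has an adjusted p under 0.05. IFIT5 in L12R to L14R, at 0.43 with an SE of 0.21, lies farthest to the right. Its control mean of 0.832 CPM was under the filter of 1 CPM, which it passed through the lens libraries.

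Other genes of the pathway were read from lists by role. Of 18 ligands listed, interferons and chemokines among them, 5 were in the table: IL6, TNFSF15, CXCL14, CXCL12 and IL34. No listed interferon was in the table under its symbol, so transcripts of the interferons could not be read here. Of the 5, 2 were tested, CXCL12 and CXCL14. None was called in any comparison, and the chemokine CXCL12 was at 5.10 ± 0.983 CPM (SD, n = 4) in L1R to L4L against 3.89 ± 0.397 (SD, n = 7), a log2 difference of 0.31 (limma adjusted p = 0.0677). CXCL14, a chemokine made by many epithelia, was at 17.5 ± 1.66 CPM (SD, n = 3) in L12R to L14R and 20.8 ± 6.07 (SD, n = 7) in the controls. Of 24 further sensors and adaptors 13 were tested, and 3 were higher in L1R to L4L than in control, where 9.4% of all genes were called higher: the flagellin receptor TLR5 (log2 0.53, adjusted p = 0.0304), the kinase IRAK4 that relays toll-like receptor signals (0.34, 0.0485) and the helicase DDX3X (0.16, 0.0461). In L12R to L14R none of these 13 was called, and TLR5 was at 9.04 ± 0.581 CPM (SD, n = 3) against 9.003 ± 1.76 (SD, n = 7) in the controls.

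Of 26 further signalling factors 19 were tested and 0 were called by limma in any comparison. In L12R to L14R against control 2 of the 19 had an unadjusted p under 0.05, where 5.19% of all genes did. They were the phosphatase PTPN11, at 39.6 ± 0.742 CPM (SD, n = 3) against 34.6 ± 3.01 (SD, n = 7) in the controls, and the lymphoid factor IRF4, at 1.26 ± 0.292 against 1.87 ± 0.361 CPM. Of 30 further stimulated genes 15 were tested. In L1R to L4L the helicase HELZ2 was higher than control (log2 0.42, limma adjusted p = 0.0228), whereas HERC4, a ubiquitin ligase, and TDRD7, a tudor protein, were lower (-0.20, 0.0333 and -0.23, 0.0474). That is 1 higher and 2 lower of 15, where 9.4% of all genes were called higher and 4.05% lower. The list was made by name, and whether interferon induces HERC4 was not tested here. Of 16 genes of antigen presentation 3 were tested. The chaperone CALR, which loads class I molecules and folds many other proteins, was at 36.5 ± 3.70 CPM (SD, n = 4) in L1R to L4L against 51.5 ± 7.50 (SD, n = 7) in the controls. Its log2 difference was -0.48 (limma adjusted p = 0.0104), and CALR was higher in L12R to L14R than in L1R to L4L by 0.58 (adjusted p = 0.0173). Of all genes 1.47% were called higher between the sets.

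L14R was also highest for some of these pathway genes, which are named after their values were seen. ZNFX1, a helicase that senses viral RNA at mitochondria, was at 0.629 to 1.57 CPM in the controls, 2.67, 0.827, 1.85 and 1.63 in L1R to L4L, and 0.914, 1.06 and 2.74 in L12R, L13L and L14R. RNF213, a large interferon-induced ubiquitin ligase, was at 2.28 to 4.02 CPM in the controls, 3.35, 3.68, 5.18 and 4.32 in L1R to L4L, and 4.28, 3.37 and 5.79 in L12R, L13L and L14R. Across the 24 further sensors and adaptors L14R was highest for 3, across the 16 genes of antigen presentation for 3 and across the 5 ligands for 0, beside 4.09% of all genes with any reads. Across the 30 further stimulated genes L14R was highest for 1, a share of 3.33%, under that background.

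The genes outside these lists whose levels most resembled the mean of the stimulated genes were found by Pearson correlation, over 14 libraries, with the mean z-score of the 14 stimulated genes. That mean was 1.27 in L14R, 0.573 in L3R and 0.327 in L1R, and at or below 0.04 in the other 11 libraries. The 14 genes did not share 1 profile: PARP9 and TAP1 ran against the mean (r of -0.211 and -0.253). The r of the others ran from 0.260 for IFI27L2 to 0.806 for IFI6. Each of the 14 genes is itself part of the mean, which raises its r. These values therefore do not measure how far a gene followed the rest, and the lowest of them show no sharing. Genes with few reads weighed as much in the mean as the rest. The 10 closest other genes had r from 0.681 to 0.807, led by the uncharacterised locus LOC426743 (0.807, and 0.777 without L14R). VANGL1, a planar polarity protein, had r of 0.799 and FSTL1, a secreted follistatin-like protein, 0.792, and these fell to 0.643 and 0.521 without L14R. CMTR1, the cap methyltransferase also known as an interferon-stimulated gene, was among the 10 with r of 0.696. L14R was not its highest library, at 27.9 CPM where another library reached 29.2. The points share their libraries and their depth, and these correlations are a description with no test. The 10 genes were the top of a ranking of many genes over 14 libraries. No background was made for that ranking, so the presence of CMTR1 is not read as a result.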

How the data were processed

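Per the labels' protocols, libraries of 14 chick retinas came from total RNA depleted of ribosomal RNA, with a kit that keeps strand. STAR, Partek and the build GRCg6a are named, without role or version, in the submitters' processing notes; the sources used here do not describe the assignment of reads to genes. The deposited values were read as CPM (counts per total of 1000000 reads) from the values themselves: less a constant of 0.0001 that stands in each cell, 93.9% to 95.1% of the low values per library (up to 20 reads) were whole multiples of 1 step within a tolerance of 0.05. The share was too low for a count model. The step gives the read totals and the reads per gene; of 173 member values from 1 to 20 reads, 157 were whole. Columns of other series numbered 0. Floors (3 reads for a count of 0) and 95% Poisson intervals cover counting error only.

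Values were taken as log2(CPM + 1), which understates the change of low genes. Genes averaging at least 1 CPM entered limma 3.58.1 under R 4.3.3 (mean-variance trend, two-sided, Benjamini-Hochberg over 11005 genes, adjusted p under 0.05), on the libraries of the groups compared; 7626 genes fell under the filter. The fit was first run on simulated data, with the same spread setting for every gene and only genes past the filter. That run checked the code and does not measure how the fit performs on these libraries. The title numbers 1 to 4 and 12 to 14 define the lens sets.

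The members and lists were chosen with earlier results of these data known. Named in detail were members past the threshold in any comparison, the 12 with the largest difference in L12R to L14R against control, and per role at least the 2 of smallest p. From each pathway list, those past the threshold, or else the 2 of smallest p, were named. ZNFX1 and RNF213, and members outside this rule, were named after their values were seen. Marker lists held retinal neurons, Müller glia, pigment epithelium, vessels, blood and leukocytes. Müller glia markers (12) and retinal neuron markers (24) were present in every group. The listed spans of 9 members overlap another listed gene. Chromosome names came from a RefSeq table of GRCg7b (40 members matched), coordinates from the deposited table on GRCg6a. Alternatives changed the pseudocount (0.1, 0.5), the filter (0.2 CPM, none), the scaling, covariates (W-linked level, title letter), the joint fit and each library left out.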

Additional observations from a re-analysis of the deposited data

Results flagged for a closer look

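A library far from the others of its group was looked for in 121 groups of libraries, and 15 were found. A nominal rate of 5% would give 6.1, but the groups share libraries and many values are a few reads. The 15 are therefore not read as an excess over chance. L14R was far above the other lens libraries for SAMD9L (0.583 CPM, others 0 to 0.102), MX1 (0.170 CPM, others 0 to 0.0203) and IFI6 (0.121 CPM, others 0 to 0.0508). L1R was far above them for PARP14 (4.80 CPM, others 2.17 to 2.90) and, within L1R to L4L, for IFI6 (0.0508 CPM, others 0). L4L was far above for STAT2 (1.68 CPM, others 0.643 to 1.03) and for SOCS3 (0.667 CPM), both within L1R to L4L and among all lens libraries. L3R was far below the other lens libraries for DHX58 (0.0586 CPM), and L2L below its set for TAP1 (0 CPM).

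Among the controls, C23R was far above for IFNGR2 (9.70 CPM) and TYK2 (1.05 CPM), C22L for SOCS1 (0.172 CPM) and C10R for SOCS3 (0.719 CPM), and C17L was far below for IFNAR1 (4.74 CPM). Several of these values rest on a few reads. The lens sets differed by test for STAT3, with a log2 difference of -0.36 (L12R to L14R less L1R to L4L, limma adjusted p = 0.0495).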

How the results depend on the processing

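Low levels limited the test: 20 of the 41 genes were under the filter, 9 of the 14 stimulated genes among them. No paired analysis was possible because control and lens libraries share no title numbers. In L12R to L14R against control no member was called under any alternative, and genes called in all numbered 0 to 2 with 1 library left out. In L1R to L4L against control the members called became 2 with the W-linked covariate (JAK2, NFKBIA) and 1 in the joint fit (IFNGR1), and 0 to 2 with 1 library left out (PARP12 without C10R, IFNGR1 without C19L, both without L4L); genes called in all ranged from 724 to 1636. For all lens libraries, genes called became 78 in the joint fit and 0 to 15 with 1 left out. Between the sets, members called became 0 with the filter at 0.2 CPM, with no filter, with either scaling, with the title letter and in the joint fit, 3 with the W-linked covariate, and 0 to 1 with 1 left out. Genes called between the sets became 1432, 278 and 906 with the W-linked covariate, the title letter and the joint fit, and 9 to 807 with 1 left out. The causes were not tested.

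The log2 differences below changed sign. With trimmed mean and median of ratios scaling these were PARP9 in L1R to L4L (-0.00209 and -0.000701), ADAR over all lens libraries (-0.00430 and -0.00323) and IFNGR2 over all lens libraries (-0.0167 and -0.0156). IFNGR2 also changed sign with the W-linked covariate (-0.00483) and in the joint fit (-0.00399). With 1 library left out the ranges were, against control, -0.114 to 0.0153 for IFNAR1 and -0.128 to 0.0268 for IFNGR2 in L12R to L14R. In L1R to L4L they were -0.149 to 0.0468 for ADAR, -0.0656 to 0.399 for IFIT5, -0.00864 to 0.0942 for IFNGR2 and -0.0434 to 0.175 for PARP9. Over all lens libraries they were -0.0315 to 0.0664 for ADAR, -0.0297 to 0.0423 for IFNGR2 and -0.00705 to 0.0897 for STAT3. Between the sets they were -0.242 to 0.0378 for PARP14 and -0.0188 to 0.243 for PARP9. Among members under the filter, leaving out 1 library also turned the sign of SAMD9L (-0.0442 to 0.258 in L12R to L14R, -0.0483 to 0.000872 in L1R to L4L, -0.0336 to 0.0796 over all lens libraries, -0.0159 to 0.287 between the sets), STAT2 (-0.117 to 0.106) and DHX58 (-0.0167 to 0.0643) in L1R to L4L, and USP18 (-0.0146 to 0.316), CMPK2 (-0.164 to 0.0270) and OASL (-0.0598 to 0.0955) between the sets. A pseudocount of 0.1 enlarged the low genes in L12R to L14R against control: SAMD9L to 0.526, CMPK2 to 0.629, OASL to 0.568 and TAP1 to -0.732.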
